A study of Mus musculus with 6 samples.

Results

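The miR-126, miR-221 and miR-222 miRNAs, which are known from the endothelium that lines blood vessels, were followed in mouse hearts after ischemia and reperfusion (I/R). Members were taken by name from the deposited table of mature miRNAs: both arms of miR-126a and miR-126b and both arms of miR-221 and miR-222. All 8 names were among the 2009 listed, and all 8 were among the 409 names kept for the test. The hearts came from male mice whose age the sources used here do not give, and each was perfused outside the body on a Langendorff system. The 3 sham hearts kept beating, while the 3 I/R hearts were stopped with cardioplegia, a solution that halts contraction, for 30 min and were then reperfused for 1 h. Isolation and perfusion were thus common to both groups. Levels are reads per 1000000 reads on listed miRNA names (RPM), given as mean ± SD with n = 3 hearts per group.

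miRNAs are short RNAs that pair through their seed, bases 2 to 8, with target mRNAs and repress them. Each is cut from a hairpin whose 5′ and 3′ sides give the 5p and 3p arms, and usually 1 arm is loaded into the silencing complex while the other is degraded. miR-126 is made from an intron of Egfl7, a gene of endothelial cells, and is known for sustaining vessel integrity and signalling by vascular growth factors. miR-221 and miR-222 come from 1 cluster, share their seed, and are known for restraining the stem cell factor receptor Kit in endothelium and for promoting growth of smooth muscle cells.

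The mature sequences show how the members are related, with the seed in capitals. RefSeq's table for GRCm38.p6 held entries for 6 of the 8 names, and miR-126a-5p and miR-222-5p are given by name only.
mmu-miR-126a-3p: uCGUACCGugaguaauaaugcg
mmu-miR-126b-5p: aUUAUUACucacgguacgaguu
mmu-miR-126b-3p: cGCGUACCaaaaguaauaaugug
mmu-miR-221-3p: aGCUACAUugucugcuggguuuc
mmu-miR-222-3p: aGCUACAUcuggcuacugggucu
mmu-miR-221-5p: aCCUGGCAuacaauguagauuucugu
The 3p arms of miR-221 and miR-222 began with the same 8 bases and matched at 11 of 23 positions when aligned without gaps, and both hold the same seed. Among 1679 mature mouse names in that table, only miR-1928 had the same seed, and it held 3 to 11 reads per library here. No other name in the table shared the seed of miR-126a-3p, miR-126b-5p, miR-126b-3p or miR-221-5p.

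miR-126a and miR-126b are the 2 strands of 1 locus. The miR-126a hairpin lies on the plus strand at chr2:26591357-26591429 and the miR-126b hairpin on the minus strand at chr2:26591363-26591420 (GRCm38.p6). Both hairpins are shown 5′ to 3′ with the mature entries in capitals, because the numbers of reads on the 2 strands bear on 4 of the 8 names.
Mir126a: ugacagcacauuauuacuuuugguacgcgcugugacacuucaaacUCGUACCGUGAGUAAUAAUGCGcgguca
Mir126b: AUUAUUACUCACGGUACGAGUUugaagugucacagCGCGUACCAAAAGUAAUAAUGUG
The miR-126b hairpin is the exact reverse complement of bases 7 to 64 of the miR-126a hairpin. In GENCODE M21 (GRCm38), 9 transcripts of Egfl7, all on the plus strand, span the locus. It lies in an intron of all 7 protein-coding ones and in an exon of 1, which is annotated as a retained intron. The locus also lies in an intron of Gm20532, which overlaps Egfl7 on the same strand. The hairpins of miR-221 (chrX:19146294-19146388) and miR-222 (chrX:19146893-19146971) are both on the minus strand, 504 bases apart, and overlap no annotated gene other than their own.

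The libraries held 7874103 to 9197869 reads on listed names. The deposited FPKM values were equal in total across libraries and were whole multiples of 1 step per library, so reads could be recovered. The labels give the tissue as heart. Cardiomyocyte miRNAs, mostly miR-1a-3p, held 357851 to 389884 RPM. On the same list, miR-499-5p had a mean of 5640 RPM over all libraries and miR-208a-3p one of 163 RPM. No batch is given in the labels, which call the hearts of a group biological replicates. In such bulk tissue, fewer cells of a type and less RNA per cell cannot be told apart.

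mmu-miR-126a-3p was among the most abundant miRNAs of these hearts, and its level in I/R hearts overlapped that in sham hearts. It ranked 5 in every library and held 2.44% to 3.13% of the reads. In sham replicates 1 to 3 it stood at 24426, 26946 and 25318 RPM, and in I/R replicates 1 to 3 at 25349, 26374 and 31326 RPM. I/R replicate 3 stood above the other 5 hearts, whereas I/R replicates 1 and 2 lay within the range of the sham hearts. The means were 25563 ± 1278 RPM in the sham group and 27683 ± 3196 RPM in the I/R group. The log2 fold change was 0.11 (SE 0.09, 95% interval -0.09 to 0.31), which did not pass the threshold in limma (adjusted p = 0.678). This interval corresponds to a ratio of 0.942 to 1.24, on the scale of log2(RPM + 1). Without I/R replicate 3 the log2 fold change was 0.02, and with TMM scaling its sign turned, at -0.0048.

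The muscle miRNA miR-1a-3p held 38.3%, 37.8% and 38.0% of reads in sham replicates 1 to 3 and 37.6%, 36.8% and 35.2% in I/R replicates 1 to 3. All I/R hearts lay below all sham hearts in this share, and I/R replicate 3 was the lowest, but the log2 fold change of -0.06 did not pass (limma adjusted p = 0.661). The name miR-1b-5p, with a mean of 186348 RPM over all libraries, is not part of this share. Its groups were also separate with I/R lower (log2 fold change -0.06, limma adjusted p = 0.678). The mean of miR-1a-3p was 372677 RPM, and to more digits the log2 fold change was -0.059 for both names. Whether miR-1b-5p and miR-1a-3p hold the same molecules was not tested, so their separate groups may be a single observation. Since each library sums to the same total, a lower share of 1 abundant name raises the others. Set against miR-1a-3p, miR-126a-3p had 63.8, 71.2 and 66.7 reads per 1000 reads of miR-1a-3p in sham hearts and 67.4, 71.7 and 89.1 in I/R hearts. I/R replicate 3 had the highest miR-126a-3p level and the lowest miR-1a-3p share, so it had to be the highest by this measure. How far the lower miR-1a-3p share bears on the level of miR-126a-3p was not tested.

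mmu-miR-126a-5p, the other arm of the same hairpin, was far scarcer. It stood at 467, 532 and 452 RPM in sham hearts and 480, 511 and 504 RPM in the I/R group. All 3 I/R values lay between the lowest and the highest sham value. The means were 483 ± 42.6 and 498 ± 16.4 RPM, with a log2 fold change of 0.05 (SE 0.10, 95% interval -0.19 to 0.28, limma adjusted p = 0.888). Its place by level was 59 to 64 among all listed names.

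mmu-miR-126b-3p, annotated opposite to the 5p side of miR-126a, had nearly the same level as miR-126a-5p in every library. Its values were 462, 526 and 461 RPM in the sham group and 483, 503 and 492 RPM in the I/R group. Sham replicate 2 was the highest for both names. Of the reads on these 2 names, miR-126a-5p held 50.1% over all libraries (95% Wilson interval 49.7% to 50.6%). Per library this share ran from 49.5% to 50.6%, and each library's interval included 50%. The interval covers counting error only, since no source used here tells of molecular identifiers. miR-126b-3p pairs without mismatch with bases 7 to 29 of the miR-126a hairpin. Whether both names hold the same molecules was not tested, so the level of each is uncertain taken singly. The log2 fold change of miR-126b-3p was 0.03 (SE 0.10, 95% interval -0.19 to 0.26, limma adjusted p = 0.916).

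The 3p side of the same locus gave other shares. mmu-miR-126b-5p overlaps miR-126a-3p on the opposite strand over 19 of its 22 bases, but it stood at 47.2, 49.3 and 49.3 RPM in the sham group and 53.1, 53.3 and 46.2 RPM in the I/R group. Its share of the reads on both names was 0.187% over all libraries (95% Wilson interval 0.180% to 0.194%). In I/R replicate 3 the share was 0.147% (interval 0.133% to 0.163%), below the 0.183% to 0.209% of the other 5 libraries. That library had both the highest level of miR-126a-3p and the lowest of miR-126b-5p. The means of miR-126b-5p were 48.6 ± 1.20 and 50.9 ± 4.02 RPM, with a log2 fold change of 0.06 (SE 0.12, 95% interval -0.21 to 0.34, limma adjusted p = 0.867).

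Other names annotated on opposite strands were compared in the same way. In the RefSeq entries, 6 pairs of listed names overlapped by at least 15 bases on opposite strands and had a mean of at least 200 reads together. In 4 of them the scarcer name held over 25% of the reads, and its share was near an even split. The share was 49.96% for miR-24-3p with miR-3074-5p, at an overlap of 20 bases. For miR-24-2-5p with miR-3074-2-3p it was 49.84%, and for miR-9-5p with miR-9b-3p 49.49%. miR-24-3p and miR-3074-5p have 2 loci each, and miR-9-5p and miR-9b-3p have 3 each, so their shares pool loci. The pair miR-30f and miR-30e-3p, which overlaps by 19 bases as miR-126a-3p and miR-126b-5p do, was at 49.8%. The exceptions were miR-203b-5p, with 8.67% of its pair, and miR-126b-5p. The pair of miR-126a-5p and miR-126b-3p was counted apart, since miR-126a-5p has no entry. Any other pair in which a name has no entry could not be found in this way, so the survey may be incomplete. The sources used here do not say whether counting used strand or how it handled reads fitting several names, and the part of either in these shares was not tested.

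**Figure D1:**
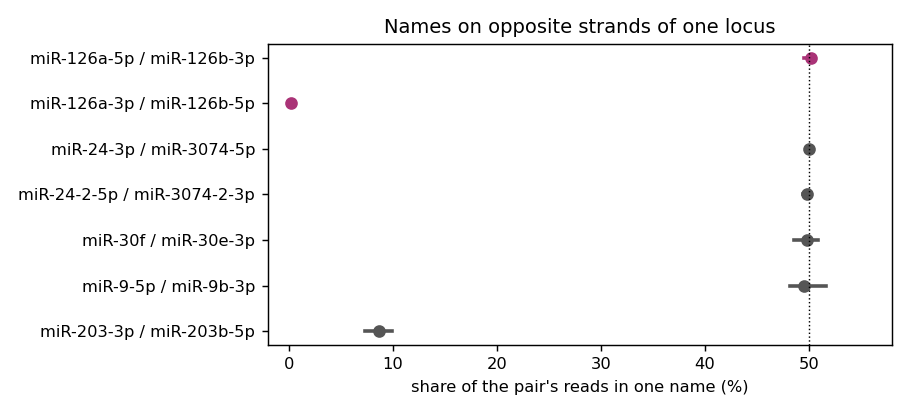
Share of reads held by 1 name of each pair annotated on opposite strands of at least 1 locus, in percent of the reads on both names. Points give all 6 libraries together and bars the lowest to highest library. The pair of miR-126a-5p and miR-126b-3p sits at 50.1% (share of miR-126a-5p; for the others the share of the scarcer name), and the pair of miR-126a-3p and miR-126b-5p at 0.187%.

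The miR-221 and miR-222 cluster was expressed at a small fraction of miR-126a-3p. mmu-miR-221-3p stood at 58.1, 68.9 and 54.2 RPM in the sham group and 65.2, 60.0 and 61.8 RPM in the I/R group. The I/R values all lay inside the sham range, whose top was sham replicate 2. The means were 60.4 ± 7.65 and 62.3 ± 2.59 RPM, and the log2 fold change was 0.05 (SE 0.13, 95% interval -0.25 to 0.35, limma adjusted p = 0.894). Within a library miR-126a-3p was 389 to 506 times as abundant as miR-221-3p.

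mmu-miR-222-3p, which shares the seed of miR-221-3p, had the highest fold change of the 8 names, and it did not pass the test. It stood at 25.3, 31.8 and 29.1 RPM in the sham group and 34.7, 30.8 and 39.9 RPM in the I/R group. I/R replicates 1 and 3 lay above all sham hearts, while I/R replicate 2 lay below sham replicate 2, so the groups overlapped. The means were 28.7 ± 3.23 and 35.1 ± 4.55 RPM, with a log2 fold change of 0.28 (SE 0.15, 95% interval -0.06 to 0.62, limma adjusted p = 0.628). A ratio of up to 1.54 is within this interval. Its value was 0.17 to 0.21 under the other scalings and count models and 0.19 without I/R replicate 3.

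The mean balance between both 3p arms of the cluster was lower in I/R hearts, but the groups overlapped. The exact test cannot reach 0.05 with these hearts, and its p also lay above the smallest value possible. The log2 ratio of miR-221-3p to miR-222-3p was 1.17, 1.09 and 0.87 in sham and 0.89, 0.94 and 0.62 in I/R hearts. Sham replicate 3 lay among the I/R values. The means were 1.04 ± 0.15 and 0.82 ± 0.17, a difference of -0.23 (two-sided exact permutation p = 0.3, where 3 against 3 hearts cannot go below 0.1). Within replicate numbers 1 to 3 the I/R heart was lower in 3 of 3 pairs, with differences of -0.27, -0.15 and -0.25. An exact sign-flip test over the pairs gave p = 0.25, the smallest that 3 pairs allow, so it cannot decide whether the ratio differed. The labels do not state this pairing. miR-222-3p made up 30.4%, 31.5% and 35.0% of the reads on both names in sham hearts and 34.7%, 33.9% and 39.2% in I/R hearts. Without I/R replicate 3 the difference of the log2 ratio was -0.13.

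The 5p arms of the cluster were scarce. mmu-miR-221-5p stood at 6.52, 6.89 and 6.54 RPM in the sham group and 8.30, 7.58 and 5.84 RPM in the I/R group, from 46 to 68 reads. Its I/R values fell on both sides of the sham range, with a log2 fold change of 0.09 (SE 0.17, 95% interval -0.29 to 0.48, limma adjusted p = 0.847). mmu-miR-222-5p stood at 1.41, 2.26 and 3.33 RPM in the sham group and 2.32, 1.71 and 2.16 RPM in the I/R group, from 13 to 27 reads. All its I/R values lay inside the sham range. Its log2 fold change of -0.09 (SE 0.25, 95% interval -0.66 to 0.48, limma adjusted p = 0.903) became 0.12 without sham replicate 3.

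**Figure D2:**
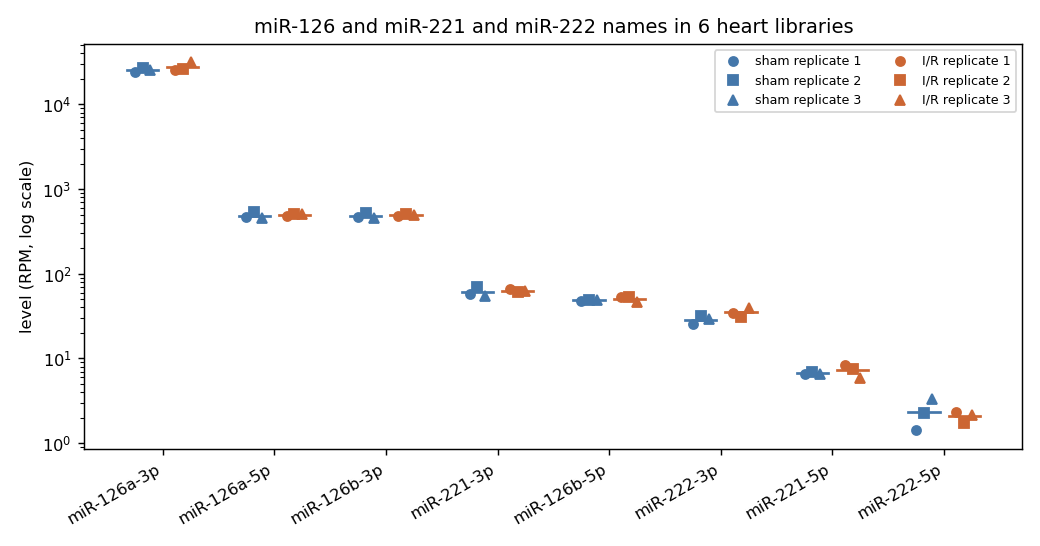
Level of each of the 8 names in RPM on a log scale, with 1 point per heart (marker shape gives the replicate number) and bars at the group means, sham in blue and I/R in orange. The names span from 1.41 RPM for miR-222-5p to 31326 RPM for miR-126a-3p, and the groups overlap for all 8.

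Ordered by level, the names fell as miR-126a-3p, miR-126a-5p, miR-126b-3p, miR-221-3p, miR-126b-5p, miR-222-3p, miR-221-5p and miR-222-5p. Each name was above the next in all 6 libraries, except that miR-126a-5p exceeded miR-126b-3p in 4 of 6. The step from miR-126a-3p to miR-126a-5p was 54.2-fold over the 6 libraries. The steps from miR-221-3p to miR-126b-5p (1.23-fold) and from miR-126b-5p to miR-222-3p (1.56-fold) were small, but they held within each library.

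The spread between hearts was compared with the error of counting reads. Around the group means, the SD on the log2 scale was 0.13 for miR-126a-3p, where counting alone would give 0.0031, and 0.09 for miR-126a-5p, where it would give 0.02, both on the scale of log2(RPM + 1). For miR-222-3p it was 0.17 against 0.09, and for miR-126b-5p 0.08 against 0.07. For miR-222-5p it was 0.32 against 0.23. For miR-221-5p it was 0.16 against a counting error of 0.17, so its spread did not exceed that of counting. Whether either SD differed from its counting error was not tested. The median SD of all 409 names was 0.21, and of the 8 members only miR-222-5p lay above it.

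Across the group comparison 0 of 8 names passed in limma at an adjusted p of 0.05, and 0 of 8 had an unadjusted p under 0.05. Over all 409 names 0% passed and 7.33% had an unadjusted p under 0.05, while edgeR called 0 names and DESeq2 called 2, neither of them a member. Groups were separate for 0 of 8 members, against 15.2% of all names (11.2% with I/R higher and 3.91% with I/R lower). Fold changes were positive for 7 of 8 members, against 70.2% of all names. The median log2 fold change was 0.06 for the members and 0.10 for all names; that of the members turned to values from -0.055 to -0.012 under the other scalings and count models and was 0.12 without sham replicate 2. The members' changes relative to that median ran from -0.19 for miR-222-5p to 0.18 for miR-222-3p, and 2 of 8 lay above it. TMM scaling moved the median of all names by -0.11, and under it the sign turned for miR-126a-3p, miR-126a-5p, both miR-126b names, miR-221-3p and miR-221-5p, but not for the miR-222 names. Median-ratio scaling and totals without the 10 most abundant names turned the sign of miR-126a-5p, both miR-126b names and miR-221-3p. With the replicate number as a block 4 names passed, none of them a member, and the members' limma adjusted p ran from 0.499 to 0.918. Of the hearts paired by number, the I/R heart was higher in 2 of 3 pairs for each of 7 members and in 1 of 3 for miR-222-5p.

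**Figure D3:**
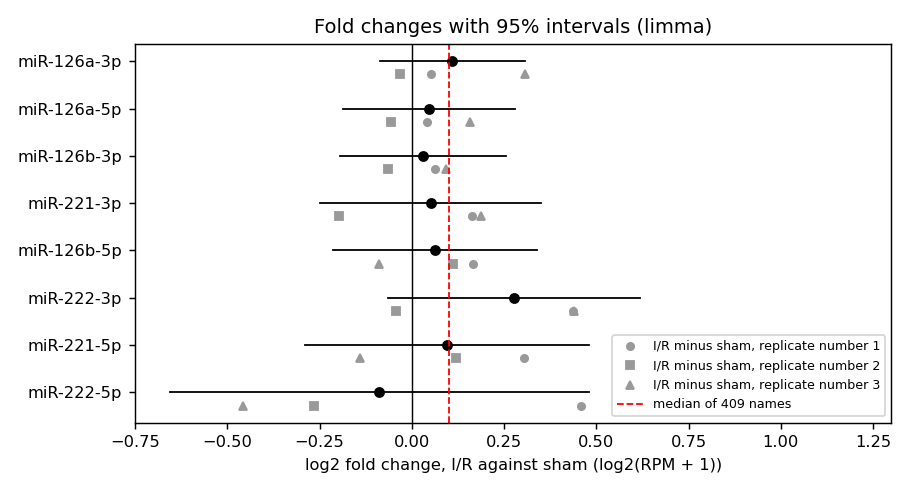
Log2 fold change of each name between I/R and sham hearts (black points) with 95% intervals from limma (lines), and in grey the difference within each replicate number. The dashed red line marks the median of all 409 names, 0.10, and all 8 intervals include both it and 0.

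**Figure D4:**
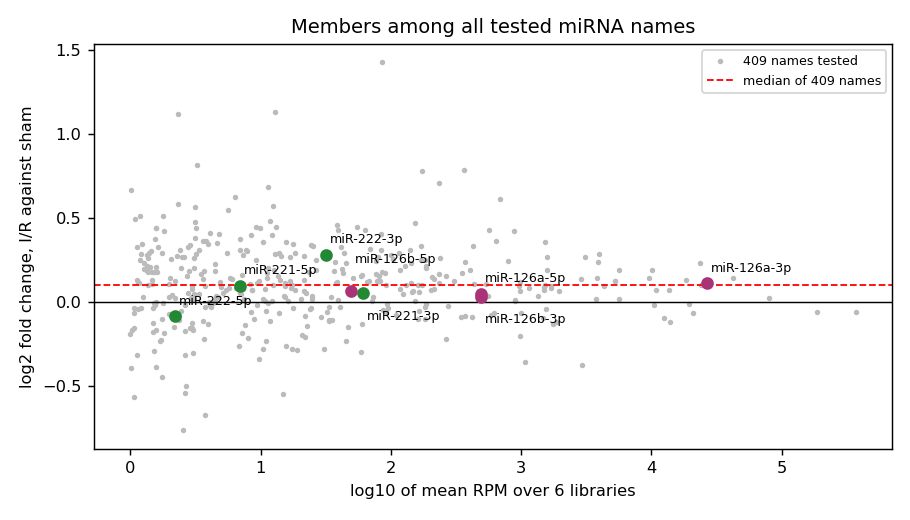
Log2 fold change against log10 of the mean level in RPM for the 409 names tested (grey), with the miR-126 names in purple and the miR-221 and miR-222 names in green. Relative to the dashed median line the members ran from -0.19 for miR-222-5p to 0.18 for miR-222-3p, whose fold change was 0.28.

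Arm balance asks whether the 5p and 3p arms of a hairpin moved against each other. For miR-126a the 3p arm was 52.9 times the 5p arm in sham hearts and 55.5 times in I/R hearts. The log2 5p-to-3p ratio was -5.71, -5.66 and -5.81 in sham and -5.72, -5.69 and -5.95 in I/R hearts, and the groups overlapped. It differed by -0.06 (SE 0.13, limma adjusted p = 0.967). By the size of the ratio miR-126a took place 22 among 94 precursors with both arms kept. Both this ratio and that of miR-126b rest on 1 of the 2 names with nearly equal read numbers, so they are uncertain.

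For miR-221 the log2 5p-to-3p ratio was -2.97, -3.15 and -2.87 in sham and -2.83, -2.83 and -3.20 in I/R hearts, a difference of 0.04 (SE 0.16, limma adjusted p = 0.967). The 3p arm was 9.08 and 8.61 times the 5p arm in sham and I/R hearts. For miR-222 the ratio was -3.45, -3.33 and -2.80 in sham and -3.43, -3.55 and -3.69 in I/R hearts. Sham replicate 3 was the highest, and I/R replicate 1 lay between sham replicates. The difference was -0.37 (SE 0.20, 95% interval -0.84 to 0.11, limma adjusted p = 0.672). It was -0.17 without sham replicate 3 and -0.49 without sham replicate 1, and miR-222-5p rested on 13 to 27 reads. For miR-126b, the difference was 0.03 (SE 0.13, limma adjusted p = 0.967). Of the 4 precursors 0 passed, against 0% of the 94, of which 6.38% had an unadjusted p under 0.05 and 11.7% had separate groups. The groups of all 4 overlapped.

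**Figure D5:**
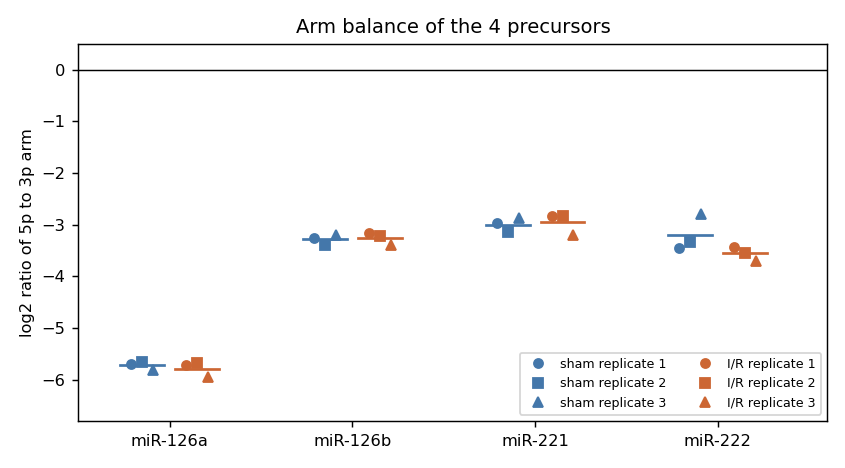
Log2 5p-to-3p arm ratio in each of 4 precursors, with 1 point per heart and bars at the group means, sham in blue and I/R in orange. All ratios lie below 0, lowest for miR-126a, and the groups overlap in each precursor.

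The names nearest in pattern to 3 of the members were taken from the rest of the table. Likeness was measured as the root-mean-square difference between log2 levels, each centred on its own mean, over 6 libraries and 401 names that are no members. Closest to miR-126a-3p were miR-194-5p (0.03 on the log2 scale), miR-7a-5p (0.04) and miR-3074-5p (0.04, with nearly as many reads as miR-24-3p on the opposite strand), where the median over all 401 names was 0.21. miR-194-5p, for example, stood at 36.1, 39.0 and 34.9 RPM in the sham group and 37.0, 38.0 and 45.0 RPM in the I/R group, also highest in I/R replicate 3. The other arm, miR-126a-5p, was farther away, at 0.10. Closest to miR-221-3p were miR-181a-5p (0.07), miR-322-3p (0.07) and miR-16-5p (0.07), and its neighbour in the cluster, miR-222-3p, was at 0.17. Closest to miR-222-3p were miR-532-5p (0.07), miR-1839-5p (0.07) and miR-28a-3p (0.08). These are descriptions of 6 libraries that share a total, with no test.

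Other miRNAs linked to endothelium and vessel growth, many of which are also made by other heart cells, gave a similar picture. Of 24 names listed, 22 were kept, and 0 rose and 0 fell at the threshold in limma. Fold changes were positive for 11 and negative for 11, and their median was 0.01 in log2 units against 0.10 for all names. The sign of this median turned under the other scalings, in edgeR and DESeq2, with the higher pseudocount, with the stricter filter and without sham replicate 1 or 3. The 3 most abundant were also the 3 with the smallest p. They were miR-100-5p (9483 ± 621 and 10831 ± 975 RPM in the sham group and I/R, n = 3 each, log2 fold change 0.19), miR-27b-3p (9185 ± 262 and 10148 ± 345 RPM, 0.14) and miR-27a-3p (5240 ± 285 and 5985 ± 413 RPM, 0.19), each with limma adjusted p = 0.598. The miR-27 miRNAs, which are known to act on vessel sprouting, had separate groups with I/R higher, and miR-130a-3p (7.64 ± 1.71 and 6.10 ± 0.33 RPM, limma adjusted p = 0.661) had them with I/R lower. These 3 of 22 names with separate groups stand against 15.2% of all names. The list sum was 32999 to 35841 RPM in the sham group and 33895 to 39619 RPM in the I/R group.

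Markers of other cell types in the heart gave 0 names past the threshold in limma. Cardiomyocyte markers had positive fold changes in 1 of 6 names (median -0.08), and their sum, mostly miR-1a-3p, was 385516 to 389884 RPM in sham and 357851 to 383265 RPM in I/R hearts, so the groups were separate. Positive fold changes were found for 2 of 4 smooth muscle markers (median -0.07) and 4 of 4 fibroblast markers (median 0.24). The values for erythroid markers were 1 of 2 kept of 4 (median -0.29), for leukocyte and platelet markers 2 of 5 (median -0.01), and for epithelial markers 2 of 3 kept of 5 (median 0.08). The 2 erythroid names kept went opposite ways, at -0.68 and 0.09, so their median shows no common direction. Platelets also carry miR-126. The leukocyte and platelet list summed to 109 to 144 RPM in the sham group and 119 to 122 RPM in the I/R group. Most of this sum was miR-150-5p (72.2 and 72.0 RPM) and miR-155-5p (35.0 and 32.2 RPM). On that list miR-223-3p, abundant in platelets and myeloid cells, stood at 4.43 ± 2.66 and 4.22 ± 1.73 RPM (n = 3 each). Its other arm, miR-223-5p, is not on the list and had a mean of 17.7 RPM over all libraries. The groups of miR-223-5p were separate with I/R higher, as for 11.2% of all names (log2 fold change 0.34, limma adjusted p = 0.598). No listed marker was at 0 in all libraries.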

How the data were processed

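Small RNA libraries of 6 mouse hearts were grouped and numbered from the labels. The authors' deposited table holds 1 signal value per miRNA name and library, called FPKM in its name. Checked on the values, all columns had 1 total, and division by each column's smallest value above 0 gave whole reads for 100% of values (tolerance 0.01 reads). The submitters' processing notes name fastp 0.23.0, bcl2fastq 2.19.1.403 and mm10; the sources used here give no aligner, miRNA annotation or strand setting. Per the labels' protocols, kits for poly(A) mRNA were used, although the titles say miRNA-seq.

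Signal was rescaled to RPM. The test kept names whose mean reached 1 RPM and that were above 0 in 3 or more of 6 libraries, and they held at least 99.98% of reads. The test was two-sided, on log2(RPM + 1), by limma 3.58.1 (R 4.3.3) with its mean-variance trend and Benjamini-Hochberg adjustment over all kept names; this scale understates the change of low names. Arm ratios were tested with limma without a trend. Alternatives included edgeR 4.0.16 and DESeq2 1.42.0 on recovered reads. Code was tested on simulated data. A limit of 3 reads was 0.326 to 0.381 RPM.

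Replicates are numbered 1 to 3 in either group. Deviations from group means correlated at 0.14 to 0.28 between libraries of the same number and at -0.19 to 0.07 otherwise, so the numbers may pair the libraries, which rests on these data and not on the labels. The tests given as main results have no block; a replicate block was run as an alternative. The members, lists and tests were chosen with earlier results of these data known. Named were all members, the 3 nearest patterns of each of 3 members, names sharing a seed or locus, and, of the endothelial list, the 3 most abundant names and the 3 with the smallest p; marker lists are given by counts and sums.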

Additional observations from a re-analysis of the deposited data

How the results depend on the processing

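No member passed the threshold in any of the alternatives run. Called names, 0 in the main analysis, numbered 1 without a filter, 4 with the replicate block, 2 in DESeq2 and 0 to 1 with a library left out (1 without sham replicate 2), and none was a member. Called arm ratios were 0 in 11 of 11 alternatives. The replicate block changed no call among the members, and for the log2 ratio of miR-221-3p to miR-222-3p an exact sign-flip test over the 3 pairs gave p = 0.25, the smallest it allows. That ratio's difference was -0.31 to -0.13 with a library left out. Of the 8 members, 1 (miR-222-3p) kept its sign throughout. With median-ratio scaling, totals without the 10 most abundant names, TMM, edgeR and DESeq2, in this order, log2 fold changes turned to -0.051, -0.023, -0.067, -0.069 and -0.053 for miR-126a-5p, -0.034, -0.0067, -0.050, -0.043 and -0.027 for miR-126b-5p, -0.068, -0.040, -0.083, -0.084 and -0.068 for miR-126b-3p, and -0.046, -0.018, -0.061, -0.067 and -0.051 for miR-221-3p. For miR-126a-3p they turned with TMM (-0.0048) and in edgeR (-0.0030), and for miR-221-5p with TMM (-0.0041). With a library left out they ran from -0.0010 to 0.094 for miR-126b-3p, -0.022 to 0.15 for miR-221-3p and -0.30 to 0.12 for miR-222-5p. Without a change of sign they ran from 0.02 to 0.17 for miR-126a-3p, 0.00022 to 0.12 for miR-126a-5p and 0.03 to 0.13 for miR-126b-5p. The same held for miR-221-5p, from 0.0020 to 0.22, and for miR-222-3p, from 0.19 to 0.37. Arm ratio differences with a library left out ran from -0.11 to 0.021 for miR-126a and -0.021 to 0.097 for miR-126b. They ran from -0.032 to 0.17 for miR-221 and, without a change of sign, from -0.49 to -0.17 for miR-222. The other scalings and count models lowered the median log2 fold change of all names from 0.10 to values from -0.0070 to 0.035. The cause of a turned sign was not tested. The 5p arms of the miR-221 and miR-222 cluster are limited by their read numbers, and at a filter of 10 RPM neither was tested.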
